A study of Homo sapiens with 10 samples.

Results

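The clustered protocadherin genes on human chromosome 5q31 lie side by side in 3 groups, alpha, beta and gamma. The islands described here were chosen by position alone, as every called island that overlaps hg19 chr5:140160000-140895000, a locus of 735 kb. They number 99 of the 778773 islands in 9 lists. The alpha stretch (240 kb) held 1 of the 99, the beta stretch (200 kb) held 0, the gamma stretch (185 kb) held 91, and the 80 kb between beta and gamma held 7.

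Protocadherins are cadherin-like adhesion proteins of the cell surface. Each alpha and gamma gene has its own promoter and its own large first exon, which is spliced to constant exons shared by the whole cluster, whereas a beta gene is 1 exon with no shared part. Neurons use different combinations of these promoters, and the resulting set of proteins lets the branches of a cell recognise and avoid each other. The gamma proteins are also made by astrocytes. The C-type genes at the ends of the alpha and gamma clusters are a distinct set whose use does not follow the promoter choice of the other genes.

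Acetylated histones were mapped with CUT&RUN, in which an antibody directs a nuclease to its target in permeabilised cells, in immortalized human astrocytes (IHA), a fetal line immortalised with SV40. H3K9ac and H3K27ac stand at promoters and enhancers in use, whereas H4K16ac spreads more widely over open chromatin. Each mark was measured in cells labelled WT IDH1 that received no doxycycline (noDox) and in cells labelled IDH1-R132H after 2 days (2d-Dox) and 7 days (7d-Dox) of doxycycline at 1 µg/ml, which induces the mutant enzyme in this line. A reaction with the HRP-linked secondary antibody in place of a primary antibody served as the control for all 9 lists. It was made on noDox cells and is labelled as an IgG control antibody (2nd HRP). The lists of 2d-Dox and 7d-Dox thus had no control from their own time. There was 1 library for each mark and time, so each value describes a library, no difference could be tested, and the intervals given are exact 95% intervals for counting error only. Cells given doxycycline without the mutant enzyme were not among the samples, so the mutant enzyme, doxycycline and time in culture cannot be told apart. Whether the cells carry astrocyte markers was not checked here.

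The size of each library relative to the HRP library, at noDox, 2d-Dox and 7d-Dox, was 3.05, 4.17 and 4.88 with H3K9ac. The H3K27ac libraries had sizes of 3.98, 3.15 and 1.49, and the H4K16ac libraries 2.53, 3.08 and 7.88. Reads divided by this size are called scaled reads below. The lists held 52044 to 110234 islands, and the island with the fewest reads held 11 to 33 reads, depending on the list. The lists give reads only inside islands, so a stretch without an island can still hold reads below the caller's limit. Each later time is compared with the same noDox library of its mark, so the comparisons at 2 and 7 days share that library.

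RefSeq's gene table, on GRCh38.p14, lists 53 protein-coding genes in the 3 clusters. They are 15 alpha genes from PCDHA1 to PCDHAC2, 16 beta genes from PCDHB1 to PCDHB15, and 22 gamma genes from PCDHGA1 to PCDHGC5. The 5 C-type genes are PCDHAC1 and PCDHAC2, the last of the alpha cluster, and PCDHGC3, PCDHGC4 and PCDHGC5, the last of the gamma cluster. SLC25A2, a mitochondrial carrier, and TAF7, a subunit of the general transcription factor TFIID, are the 2 protein-coding genes between PCDHB15 and PCDHGA1, and DIAPH1, an actin-nucleating formin, follows PCDHGC5. The islands are on hg19 and the table is on another build, so the table was used for names, order and sequence, and no island was assigned to a gene.

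Promoter sequences are shown for 4 genes, to let the clusters and a C-type gene be compared. Below are the 250 bases before the annotated start of the first alpha, last beta and first gamma gene and of the C-type gene PCDHGC3, in capitals wherever CGCT occurs on the strand shown. CGCT is the core of the conserved sequence element found in most protocadherin promoters. The sequences are from RefSeq (GRCh38.p14), all on the plus strand, at chr5:140785890-140786139 (PCDHA1), chr5:141245145-141245394 (PCDHB15), chr5:141330264-141330513 (PCDHGA1) and chr5:141475716-141475965 (PCDHGC3). These positions belong to GRCh38.p14 and cannot be set beside the hg19 positions of the islands.
PCDHA1: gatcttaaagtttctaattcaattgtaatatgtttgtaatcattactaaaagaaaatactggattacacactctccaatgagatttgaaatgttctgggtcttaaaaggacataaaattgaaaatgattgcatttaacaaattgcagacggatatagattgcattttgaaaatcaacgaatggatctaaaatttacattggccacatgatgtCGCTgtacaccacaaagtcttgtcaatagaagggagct
PCDHB15: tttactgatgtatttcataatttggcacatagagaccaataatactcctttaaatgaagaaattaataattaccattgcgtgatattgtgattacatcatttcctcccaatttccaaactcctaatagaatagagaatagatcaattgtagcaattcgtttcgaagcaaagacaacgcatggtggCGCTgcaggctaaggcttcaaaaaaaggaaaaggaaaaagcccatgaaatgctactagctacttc
PCDHGA1: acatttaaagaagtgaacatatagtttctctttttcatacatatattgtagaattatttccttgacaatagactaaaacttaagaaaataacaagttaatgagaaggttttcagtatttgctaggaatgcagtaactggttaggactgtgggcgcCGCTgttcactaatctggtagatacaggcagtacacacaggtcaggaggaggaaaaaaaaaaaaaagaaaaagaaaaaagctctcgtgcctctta
PCDHGC3: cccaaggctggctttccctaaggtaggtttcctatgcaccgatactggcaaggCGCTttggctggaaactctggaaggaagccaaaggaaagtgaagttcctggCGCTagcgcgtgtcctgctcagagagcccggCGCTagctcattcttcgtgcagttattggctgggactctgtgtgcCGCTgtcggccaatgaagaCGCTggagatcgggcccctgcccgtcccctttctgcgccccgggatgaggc
The PCDHA1, PCDHB15 and PCDHGA1 windows each hold CGCT once, and the PCDHGC3 window holds it 5 times.

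Promoters of 300 bases, 250 before to 50 after the start, were found for 47 of the 53 genes. The letters searched, on both strands, were CGCT and 3 longer words that contain it, chosen after the sequences were seen. CGCT was in 12 of 13 alpha, 14 of 14 beta and 20 of 20 gamma promoters, against 70.0% of all 35116 promoters in the table, so this short word alone does not set them apart. The word TGTCGCT was in 10 of 13 alpha promoters and 1.76% of all promoters. The word TGGCGCT was in 13 of 14 beta promoters and 4.08% of all promoters, and the word GCGCCGCTG was in 10 of 20 gamma promoters and 1.28% of all promoters. Each word was thus common in 1 cluster, while the alpha and beta words were each also in 3 of the 20 gamma promoters. The CpG count, the number of CG pairs in the 300 bases, had a median of 7 in the alpha genes that are not C-type, 7.5 in the beta genes and 7.5 in the other gamma genes, against 14 over the whole table. It was 27 at PCDHAC1, 15 at PCDHAC2, 18 at PCDHGC3, and 23 and 24 at the pair of starts listed for PCDHGC4, while the gamma genes that are not C-type ranged from 2 to 25. The C-type gene PCDHGC5 had no promoter sequence. The values for gamma genes that are not C-type were taken over 22 listed starts of 18 genes.

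Acetylation islands were almost absent from the alpha and beta clusters, and this held for all 3 marks at all 3 times. The beta cluster held no island in any list. The alpha cluster held 1, an H3K27ac island at 7d-Dox of 600 bases at chr5:140391801-140392400, near the end of the alpha stretch. It had 14 antibody reads against 5 HRP reads, a fold of 1.88 over the scaled control and an FDR of 0.0105 in the authors' deposited table. The H3K27ac library at 7d-Dox was the smallest of the 9.

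Long stretches without islands were also found elsewhere in this genome. Of 12617 genome windows of the length of the alpha cluster, 24.5% held at most 1 island over the 9 lists, 18.6% held none, and 20.3% of those on chromosome 5 held at most 1. Taken list by list, 21.8% to 36.6% of these windows held none. Of 15138 windows of the length of the beta cluster, 20.7% held none over the 9 lists and 24.5% to 38.9% held none in a given list. The windows were laid along whole chromosomes, with sequence gaps and gene-poor parts kept in. These shares therefore do not tell whether empty clusters are unusual for gene-rich sequence. The island-free stretch that contains the beta cluster ran from 140392401 to 140698600 over all lists (306.2 kb), and without the alpha island it would run from 140105401 (593.2 kb). Of 122269 island-free stretches in the genome over all 9 lists, 937 were at least as long as the first and 310 at least as long as the second. In the individual lists, the stretch without the alpha island ran from 593.6 kb (H3K27ac 7d-Dox) to 709 kb (H4K16ac noDox).

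The surroundings of the locus were acetylated. Stretches of the same length on either side held 507 islands before the locus and 442 after it, against the 99 inside it. The last island before the locus ended 54.6 to 77.8 kb ahead of its start, depending on the list.

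**Figure D1:**
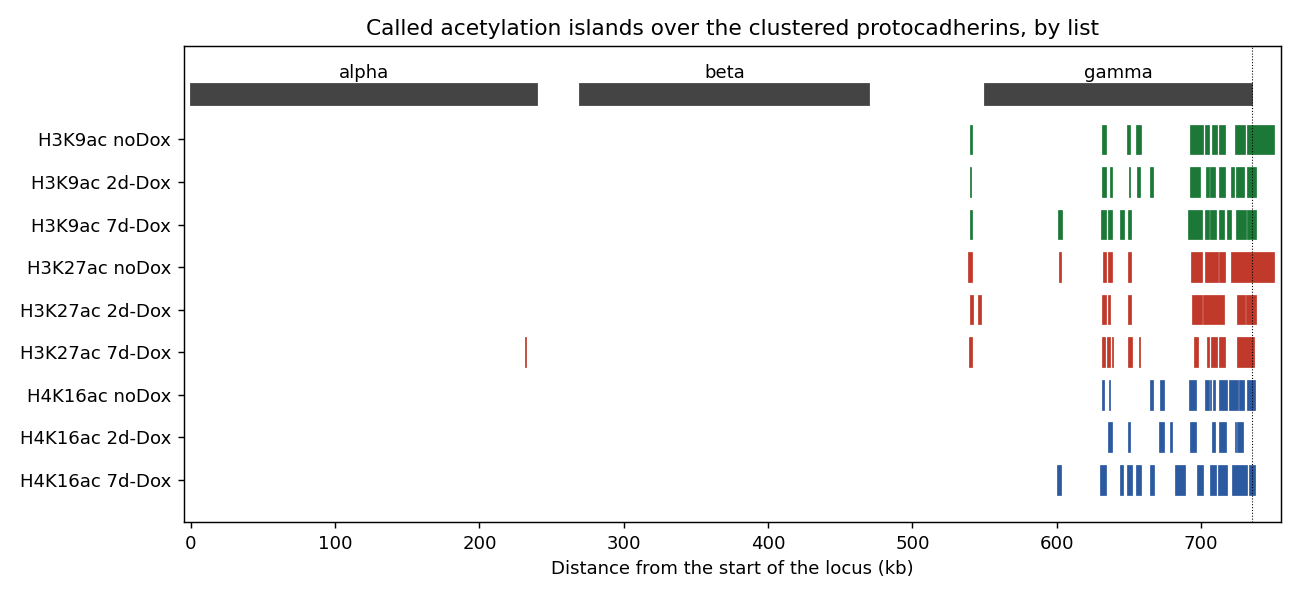
Called islands of each of the 9 lists (rows; green H3K9ac, red H3K27ac, blue H4K16ac) against distance in kb from the start of the 735 kb locus, with the 3 clusters as bars above; the dotted line marks the locus end. The alpha and beta bars lie over empty rows except for 1 H3K27ac island at 7d-Dox, and 91 of 99 islands lie in the gamma cluster.

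The next islands of the locus after that in alpha lay between the beta and gamma clusters, in the stretch that holds SLC25A2 and TAF7 in RefSeq's order. H3K27ac had an island there in each of its lists, merged into chr5:140698601-140702000, with 129, 114 and 87 reads at noDox, 2d-Dox and 7d-Dox against 8, 12 and 8 HRP reads. Scaled for library size these were 32.4, 36.2 and 58.3, highest at 7d-Dox. The log2 ratio over noDox was 0.16 (interval -0.22 to 0.54) at 2d-Dox and 0.85 (0.44 to 1.25) at 7d-Dox.

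H3K9ac also had an island at that site in each list, merged into chr5:140699601-140701400, with 45, 38 and 52 reads. Its scaled reads were 14.8, 9.11 and 10.6, highest at noDox, and its log2 ratio was -0.70 (-1.36 to -0.04) at 2d-Dox and -0.47 (-1.08 to 0.14) at 7d-Dox. H4K16ac had no island between the beta and gamma clusters at any time. Such sites are frequent in the genome: at noDox 40.9% of H3K9ac islands and 40.9% of H3K27ac islands overlapped no H4K16ac island, at 2d-Dox 43.5% and 49.3%, and at 7d-Dox 25.5% and 43.5%. A second H3K27ac island between the clusters, chr5:140705601-140707200, was called at 2d-Dox with 29 reads.

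Within the gamma cluster all 3 marks were present, and most reads lay at its far end, the end where PCDHGC3, PCDHGC4 and PCDHGC5 stand in gene order. The gamma cluster held 90.3% to 96.9% of the reads of the locus for H3K9ac and H3K27ac, and all of them for H4K16ac. The last 50 kb of the cluster, a stretch chosen after the values were seen, held 81.1% to 83.5% of gamma reads for H3K9ac at noDox and 2d-Dox and 77.4% at 7d-Dox. The share was 88.2%, 90.0% and 84.5% for H3K27ac and 80.0%, 65.4% and 64.5% for H4K16ac at noDox, 2d-Dox and 7d-Dox. The first gamma island of any list began at 140760001, so the first 50 kb of the cluster held none.

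H3K9ac islands covered 36.6, 36.2 and 46.6 kb of the gamma cluster at the 3 times. H3K27ac islands covered 42.8, 36.4 and 29.8 kb, and H4K16ac islands 34.4, 24.8 and 51.2 kb. As a share of the cluster this was 13.4% to 27.7%, with both ends set by H4K16ac, at 2d-Dox and at 7d-Dox. The same share was 20.2% to 51.0% in the stretches before and after the locus. For H3K27ac the smallest library had the least called length, and for H4K16ac and H3K9ac the largest had the most. The order did not hold throughout: at 2d-Dox the H4K16ac and H3K9ac libraries were larger than at noDox and had less called length. The part of library size in these lengths was not tested.

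Reads over the HRP control were 3.36, 3.36 and 3.10 times the scaled control for H3K9ac in gamma islands, with the intervals of the 3 times between 2.54 and 4.20. For H3K27ac the enrichment was 6.0, 6.45 and 9.75, and the interval at 7d-Dox (7.63 to 12.6) lay above that at noDox (5.07 to 7.15). For H4K16ac it was 3.43, 3.26 and 2.09, and the interval at 7d-Dox (1.73 to 2.54) lay below that at noDox (2.70 to 4.41). Over all islands of the genome the enrichment moved the same way, at 5.0, 5.51 and 6.83 for H3K27ac and 3.26, 2.77 and 2.12 for H4K16ac, and it was 3.06, 3.05 and 2.73 for H3K9ac. In gamma the smallest library had the highest enrichment and the largest library the lowest, and the part of library size was not tested. The intervals share the HRP library and cover whole islands, parts past the locus end included. These islands differ in length: 58.6 kb at noDox and 31.2 kb at 7d-Dox for H3K27ac, and 36.6 and 53.6 kb for H4K16ac.

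**Figure D2:**
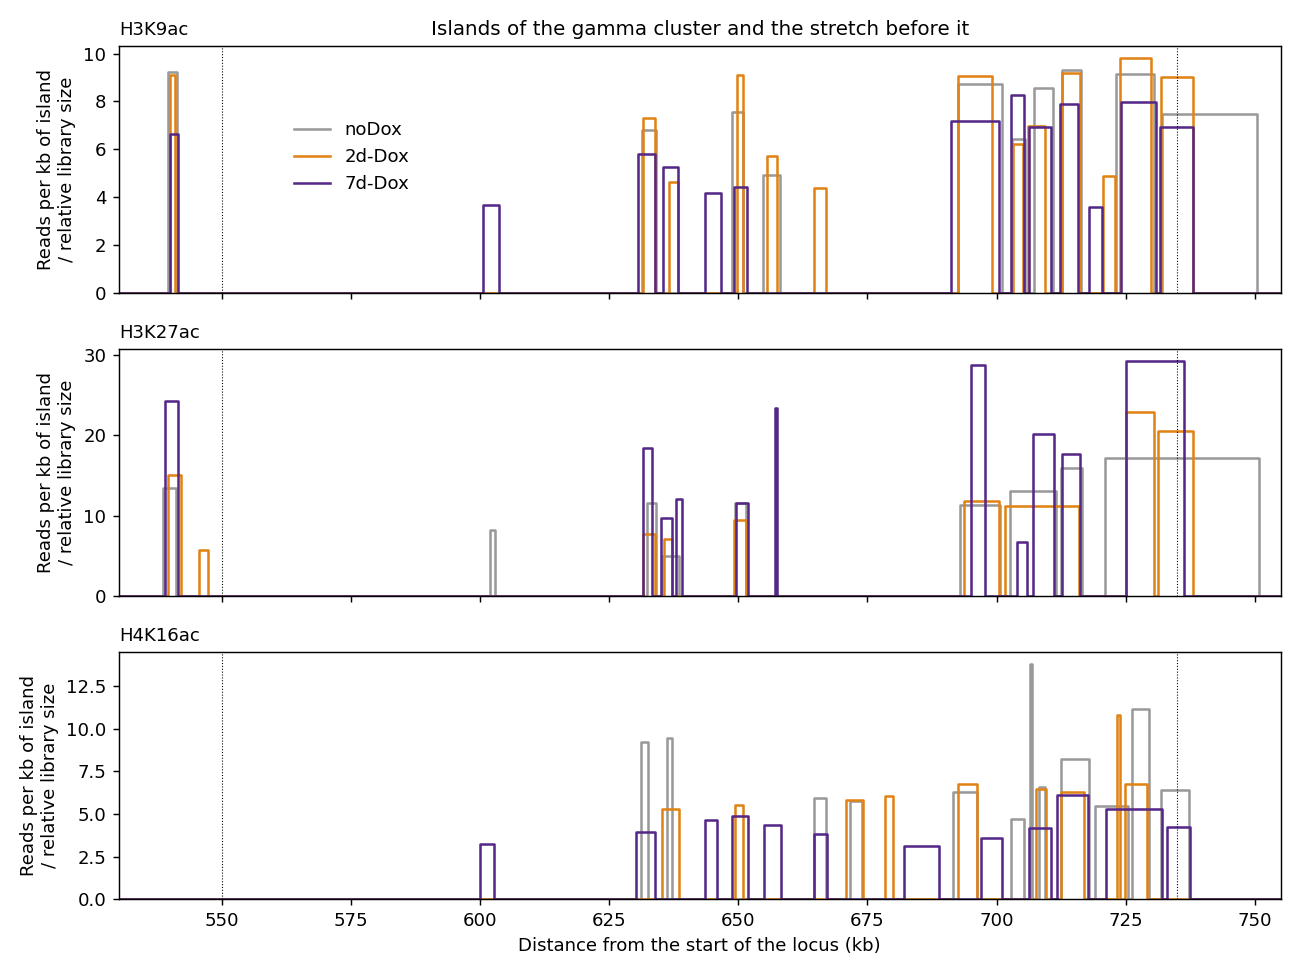
Scaled reads per kb of each island (y axis, linear) against distance in kb from the start of the locus (x axis), for the gamma cluster, between the dotted lines, and the stretch before it, with 1 panel per mark and 1 colour per time. Islands are sparse before the last 50 kb and dense within it, where most H3K27ac islands of 7d-Dox are taller than those of noDox and 2d-Dox.

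The marks met more often in gamma than over the genome. The stretches before and after the locus were not measured for this, so whether it is particular to gamma was not tested. Of the gamma bases called in any mark, 33.7%, 25.6% and 27.8% were called in all 3 marks at noDox, 2d-Dox and 7d-Dox, against 10.7%, 10.2% and 10.7% of the bases called over the genome. In gamma and the stretch between beta and gamma together, 84 kb were called in any of the 9 lists, and of these 7.8 kb (9.29%) were called in all 9, against 1.74% over the genome. They formed 4 stretches, all near the far end of the cluster: chr5:140868201-140869400, chr5:140872601-140875800, chr5:140885001-140885400 and chr5:140886201-140889200.

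The islands over the 2 stretches from 140885001 were the most enriched of the 4 in the authors' deposited table for H3K9ac, with folds of 11, 9.83 and 8.77 over the control at noDox, 2d-Dox and 7d-Dox. For H3K27ac the deposited folds there were 7.21, 20.7 and 12.4. The noDox value belongs to an island of 29.8 kb that runs past the locus, and the others to islands of 5.4 and 11.4 kb, so these folds cover different lengths. For H4K16ac the folds of the islands over chr5:140886201-140889200 were 6.32, 4.97 and 2.59, and those islands were 3.4, 4.4 and 10.8 kb long.

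Reads over the whole locus were compared next, since the series concerns how the mutant enzyme bears on these marks. H3K9ac had 1296, 1328 and 1614 reads in islands of the locus, scaled to 425, 318 and 330. H3K27ac had 3519, 1890 and 1104 reads, scaled to 884, 601 and 740. H4K16ac had 651, 483 and 1875 reads, scaled to 257, 157 and 238. All 3 marks thus had their highest scaled value at noDox and their lowest at 2d-Dox when whole islands were counted. The log2 ratios at 2d-Dox were -0.42 (-0.53 to -0.31) for H3K9ac, -0.56 (-0.64 to -0.48) for H3K27ac and -0.72 (-0.89 to -0.54) for H4K16ac. At 7d-Dox they were -0.36 (-0.47 to -0.26), -0.26 (-0.35 to -0.16) and -0.11 (-0.24 to 0.02).

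Much of that order rested on where islands end. At noDox the last H3K9ac island (chr5:140892001-140910400) and the last H3K27ac island (chr5:140881001-140910800) reached past the locus end, while those of the later lists ended close to it and were followed by separate islands outside. When reads of such islands were divided in proportion to the length inside the locus, the scaled H3K9ac values were 310, 291 and 310. The H3K27ac values became 613, 539 and 699, and those of H4K16ac 243, 157 and 228. The log2 ratios at 2d-Dox then were -0.09 for H3K9ac, -0.19 for H3K27ac and -0.63 for H4K16ac. At 7d-Dox the H3K9ac values at noDox and 7d-Dox were nearly equal, H3K27ac was at 0.19 and H4K16ac at -0.09. H4K16ac at 2d-Dox had the lowest ratio of the 6 under both ways of counting. Over the bases called in all 3 H4K16ac lists this order did not hold: the ratio was -0.35 at 2d-Dox and -0.63 at 7d-Dox. H4K16ac at 7d-Dox depended on the scaling: it was -0.62 when libraries were scaled by their reads in islands.

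**Figure D3:**
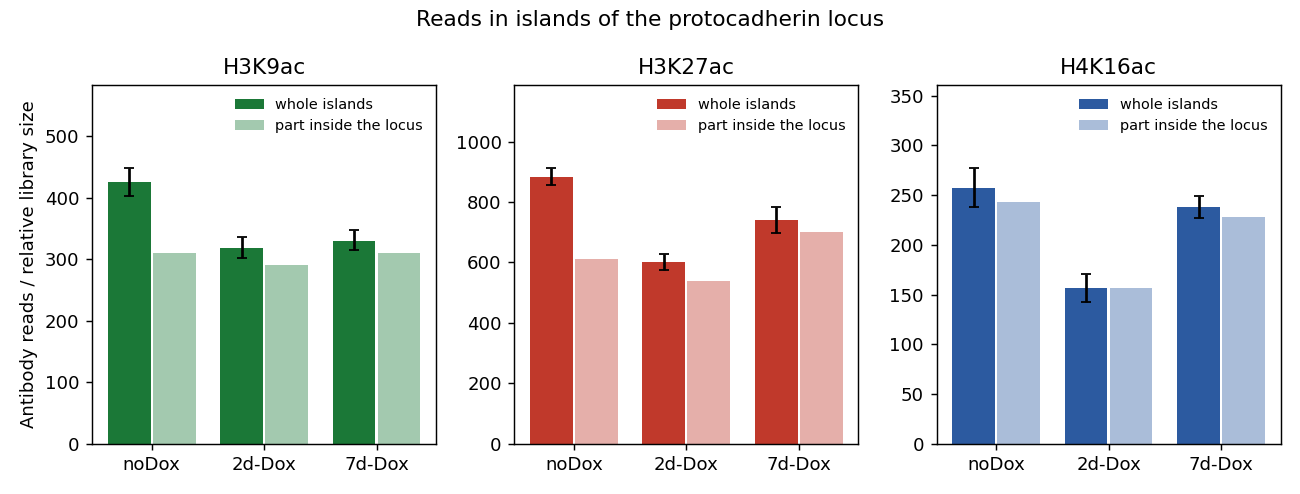
Scaled antibody reads (antibody reads divided by relative library size; y axis from 0) in islands of the locus for each mark at noDox, 2d-Dox and 7d-Dox; dark bars count whole islands, with 95% Poisson intervals for counting error, and pale bars count the part inside the locus. The dark noDox bars of H3K9ac (425) and H3K27ac (884) stand well above their pale bars (310 and 613), and H4K16ac is lowest at 2d-Dox (157) in both.

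Windows of the same length over the genome give the background for these ratios. With reads divided at the boundary in the same way, the median window had a log2 ratio of 0.10 for H4K16ac at 2d-Dox, and 12.2% of 3140 windows had a lower value than the locus at -0.63. At 7d-Dox the median window for H4K16ac was at 0.51, and 9.16% of 3176 windows lay below the locus at -0.09. The locus was thus toward the low end for H4K16ac at both times, without being at its edge. For H3K9ac 36.3% and 38.6% of windows lay below the locus at 2d-Dox and 7d-Dox. For H3K27ac 21.6% lay below at 2d-Dox and 74.8% at 7d-Dox, where the locus was at 0.19 and the median window at -0.02.

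**Figure D4:**
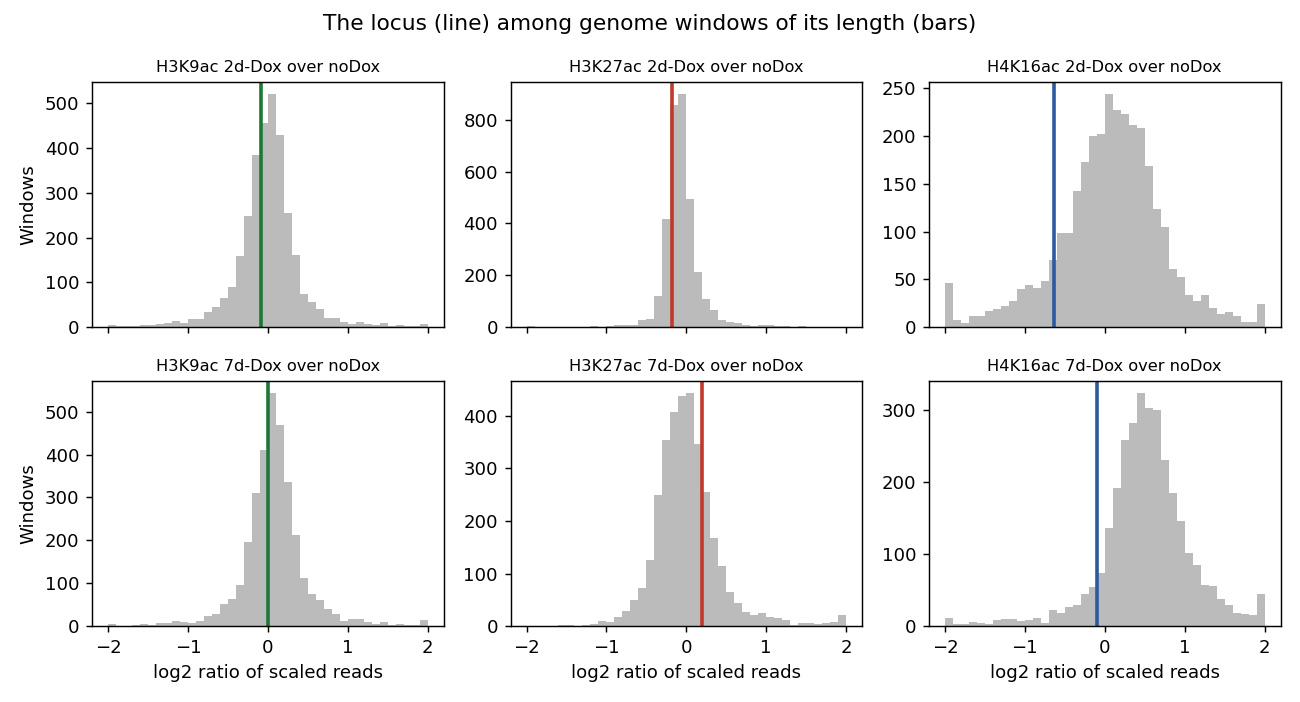
Number of genome windows of 735 kb (y axis) by log2 ratio of scaled reads over noDox (x axis), for each mark at 2d-Dox (top) and 7d-Dox (bottom), values beyond the axis are counted in the end bars, and the coloured line is the protocadherin locus. The line lies in the lower part of both H4K16ac panels (-0.63 and -0.09) and inside the bulk of the H3K9ac panels.

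The ratios differed between the far end of gamma and the rest of it. With reads divided at the boundaries, the last 50 kb had scaled H4K16ac reads of 194, 102 and 147, and log2 ratios of -0.92 at 2d-Dox and -0.40 at 7d-Dox. The other 135 kb had scaled H4K16ac reads of 48.6, 54.1 and 80.8, and log2 ratios of 0.16 and 0.73. In the same 135 kb the scaled H3K27ac reads were 68.3, 49.6 and 97.9, with a log2 ratio of 0.52 (0.22 to 0.81) at 7d-Dox.

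The scaled H3K9ac reads of the 135 kb were 48.5, 53.4 and 67.6, with a log2 ratio of 0.48 (0.19 to 0.77) at 7d-Dox. The sums of all 3 marks were highest at 7d-Dox in the first 135 kb of the cluster, the stretch toward PCDHGA1, but each sum depends on how much was called. Over the bases called at all 3 times the H3K9ac ratio there was -0.39 and the H3K27ac ratio 0.44. For H4K16ac no region of the 135 kb had an island at all 3 times. The H4K16ac regions there with an island at both noDox and 7d-Dox had log2 ratios of 0.36 (chr5:140790201-140793800) and -0.52 (chr5:140824601-140827200), and -1.22 and -0.64 per kb of island. The higher H3K9ac and H4K16ac sums thus went with islands called at 7d-Dox and not at noDox. In the last 50 kb the 7d-Dox ratio was -0.09 for H3K9ac and 0.06 for H3K27ac. The H4K16ac library at 7d-Dox was the largest of the 9 and the H3K27ac library at 7d-Dox the smallest.

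Islands of 1 mark that touch between the 3 lists were merged into regions, 16 for H3K9ac, 11 for H3K27ac and 16 for H4K16ac. Of these, 9 of 16, 7 of 11 and 3 of 16 had an island at all 3 times, which is 56.2%, 63.6% and 18.8%, against 37.1%, 44.1% and 30.3% over the genome. Ratios were taken where both libraries had an island and the larger count was 50 reads or more. A 2-fold difference from noDox was found in 0 of 7 H3K9ac regions at 2d-Dox (15.4% over the genome) and 0 of 9 at 7d-Dox (12.7%). It was found in 0 of 7 H3K27ac regions at 2d-Dox (4.03%) and 1 of 7 at 7d-Dox (10.6%). For H4K16ac it was found in 1 of 5 at 2d-Dox (30.7%) and 0 of 5 at 7d-Dox (25.3%). With so few regions, these counts do not set the locus apart from the genome.

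The median log2 ratio over these regions was -0.16 at 2d-Dox and -0.18 at 7d-Dox for H3K9ac, against -0.05 and 0.00 over all regions of the genome. For H3K27ac it was -0.20 and 0.14, against -0.13 and -0.17. For H4K16ac it was -0.25 and -0.33, against 0.24 and 0.43. The 5 H4K16ac regions compared at 2d-Dox and the 5 at 7d-Dox shared only chr5:140871801-140878000 and chr5:140879001-140897400. At each time the median over the 5 was below that of the genome. A change of scaling moves both medians alike.

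The H4K16ac region past 2-fold was the one with most H4K16ac reads, chr5:140879001-140897400, at the end of the cluster. It had 273, 112 and 596 reads against 32, 6 and 34 HRP reads, and scaled reads of 107.8, 36.3 and 75.6. The log2 ratio was -1.57 (-1.90 to -1.25) at 2d-Dox and -0.51 (-0.72 to -0.30) at 7d-Dox. Its called length was 15200, 5000 and 15200 bases, and per kb of island the log2 ratio at 2d-Dox was 0.03. That value sets the average over the longer noDox length beside a shorter stretch. At its centre the noDox island chr5:140886201-140889600 had 11.1 scaled reads per kb and the 2d-Dox island chr5:140884801-140889200 had 6.78. These 2 islands also differ in length, at 3.4 and 4.4 kb. The 2d-Dox island begins over the end of another noDox island, which had 5.49 scaled reads per kb. The lower sum at 2d-Dox thus went with a shorter called length, and whether the level at the centre was lower was not tested. The other marks were called there at 2d-Dox. The H3K9ac region over the centre, chr5:140883201-140890800, had 201, 246 and 257 reads and a log2 ratio of -0.16 (-0.44 to 0.12). The H3K9ac region chr5:140891601-140910800, most of which lies past the H4K16ac region, had 0.01 (-0.18 to 0.19), and the H3K27ac region chr5:140881001-140913600 had -0.20 (-0.30 to -0.10). The difference between the marks was not tested.

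The next H4K16ac region, chr5:140871801-140878000, had 117, 89 and 290 reads, scaled to 46.2, 28.9 and 36.8, and a log2 ratio of -0.68 (-1.09 to -0.27) at 2d-Dox and -0.33 (-0.64 to -0.01) at 7d-Dox. Higher H4K16ac sums were at chr5:140795201-140798400, with 24 and 52 reads at noDox and 2d-Dox and a log2 ratio of 0.83 (0.11 to 1.59), but -0.85 per kb, as the called length went from 1000 to 3200 bases. They were also at chr5:140866201-140870600, with 34, 40 and 145 reads and 0.45 (-0.09 to 1.04) at 7d-Dox, but -1.0 per kb, as the called length went from 1600 to 4400 bases. At chr5:140824601-140827200, with 36 and 78 reads at noDox and 7d-Dox, the ratio was -0.52 (-1.11 to 0.09). Of these last 3 regions, the intervals of the second and the third included no difference. At chr5:140830801-140834200, with 35 and 61 reads at noDox and 2d-Dox, the ratio was 0.52 (-0.11 to 1.16). Per kb it was 0.01, as the called length went from 2400 to 3400 bases.

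The H3K27ac region past 2-fold, chr5:140795001-140799000, had 64, 36 and 50 reads and scaled reads of 16.1, 11.4 and 33.5, highest at 7d-Dox. Its log2 ratio was -0.49 (-1.12 to 0.12) at 2d-Dox and 1.06 (0.50 to 1.62) at 7d-Dox. Its neighbour chr5:140791601-140794000 had 83, 54 and 44 reads and a ratio of 0.50 (-0.06 to 1.04) at 7d-Dox. The H3K27ac regions with most reads had ratios nearer to 0 at 7d-Dox. Region chr5:140881001-140913600 had 2037, 1399 and 788 reads and 0.05 (-0.07 to 0.17), and chr5:140861601-140876600 had 737, 508 and 239 reads and -0.21 (-0.42 to 0.00). In chr5:140853001-140860600 the called length went from 7600 bases at noDox to 2800 bases at 7d-Dox, with scaled reads of 86.4 and 80.5.

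Among H3K9ac regions that met the read limit for ratios, those over noDox lay between -0.45 and 0.01 at 2d-Dox and between -0.50 and 0.36 at 7d-Dox. Regions under the limit at 2d-Dox had lower ratios. They were -0.70 (-1.36 to -0.04) at chr5:140699601-140701400, -0.73 (-1.39 to -0.08) at chr5:140808801-140811600 and -0.61 (-1.24 to 0.01) at chr5:140814801-140818000. Of the regions that met the limit, the lowest at 2d-Dox was chr5:140866001-140871000, with 99, 99 and 149 reads and -0.45 (-0.87 to -0.04). The highest at 7d-Dox was chr5:140862801-140865600, with 51, 52 and 105 reads and 0.36 (-0.13 to 0.87). The region with most H3K9ac reads, chr5:140891601-140910800, had 420, 577 and 594 reads and -0.18 (-0.36 to 0.00) at 7d-Dox. At 2d-Dox the H3K9ac ratios at this limit spanned a narrower range than those of H4K16ac, which ran from -1.57 to 0.83. The H4K16ac value of -1.57 is that of 1 region. At 7d-Dox the H4K16ac ratios ran from -0.52 to 0.45, close to the H3K9ac range.

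**Figure D5:**
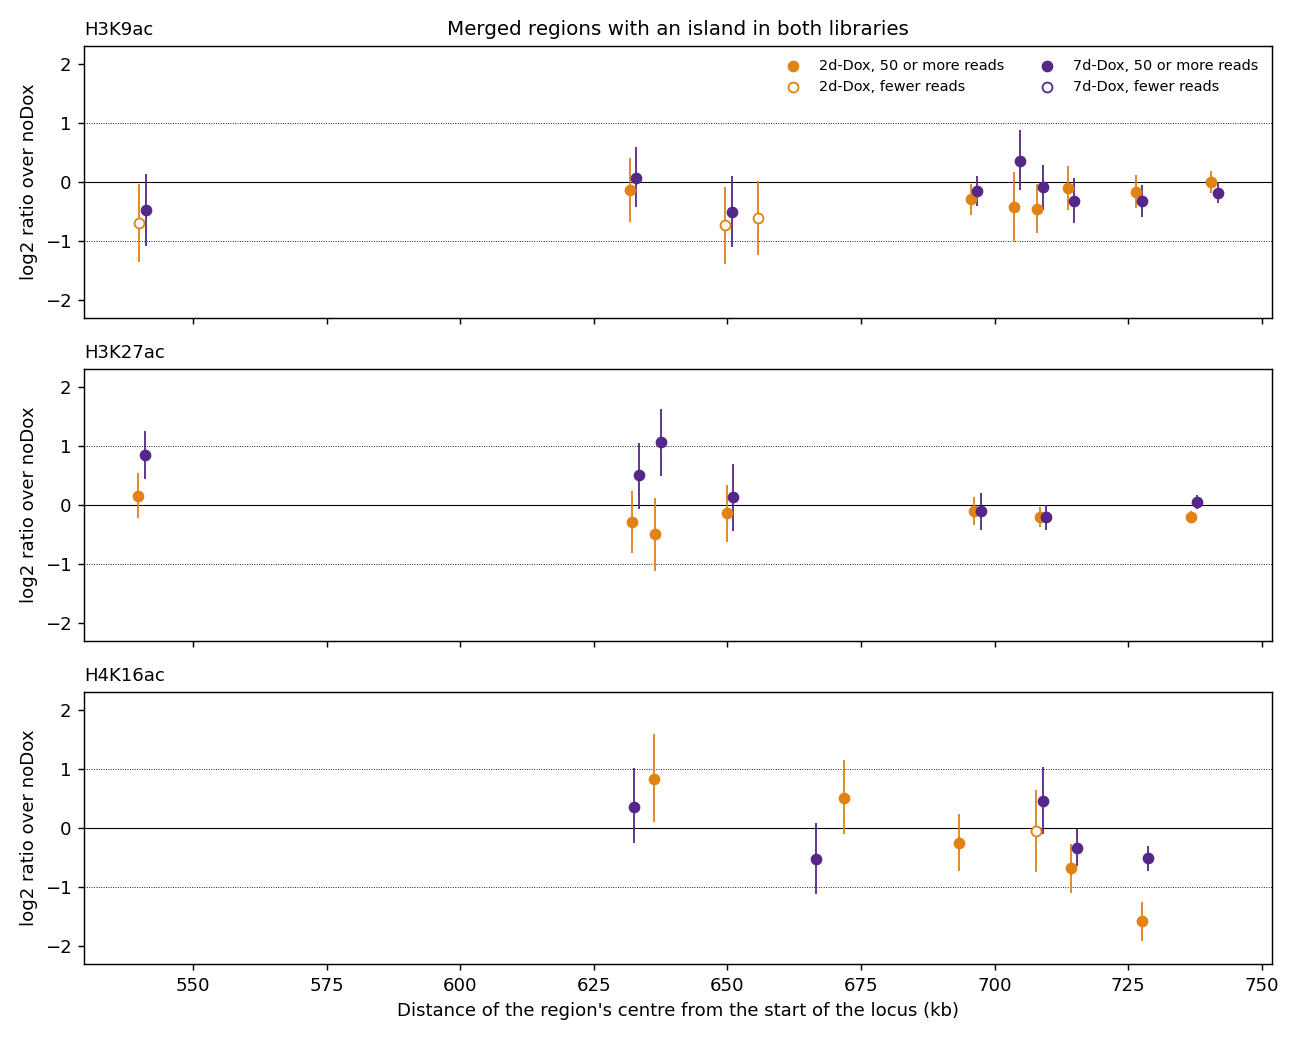
log2 ratio of scaled reads over noDox (y axis) for each merged region with an island in both libraries, against the distance of its centre from the start of the locus in kb (x axis), at 2d-Dox (orange) and 7d-Dox (purple); bars are 95% intervals for counting error, open circles are regions under 50 reads in both libraries and dotted lines mark 2-fold. H4K16ac has 1 region below the lower line at 2d-Dox (-1.57) and H3K27ac 1 above the upper line at 7d-Dox (1.06).

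Some regions were called at some times and not at others. Of the 16 H4K16ac regions, 6 had an island at 2 times and 7 at 1 time, against 29220 and 50315 of 114181 over the genome. For H3K9ac these were 2 and 5 of 16 (26573 and 50387 of 122355), and for H3K27ac 0 and 4 of 11 (10864 and 35184 of 82368). The share of genome regions called at 7d-Dox alone was not counted. H4K16ac islands with at least 50 reads that had no noDox or 2d-Dox counterpart lay at chr5:140760001-140762600 (66 reads), chr5:140803601-140805800 (81), chr5:140815001-140818200 (110), chr5:140842001-140848800 (167) and chr5:140857001-140861000 (114). In the authors' deposited table their folds over the control were 2.57 at chr5:140803601-140805800 and 2.41 at chr5:140857001-140861000. At the others they were below 2, down to 1.25 at chr5:140842001-140848800, with 17 HRP reads. The read counts alone thus do not show how far these islands stood above the control. The island at chr5:140857001-140861000 lies beside chr5:140851601-140856200, which was called at noDox (73 reads) and 2d-Dox (75 reads) and not at 7d-Dox, so a neighbouring island was called at each time. H4K16ac at chr5:140808801-140811800 was called at 2d-Dox (24 reads) and 7d-Dox (116 reads), and at chr5:140830801-140834200 at noDox (35 reads) and 2d-Dox (61 reads). At chr5:140790201-140793800 it was called at noDox (28 reads) and 7d-Dox (112 reads). The limit of 50 reads is not scaled, so the larger libraries meet it more easily. Below it, H4K16ac was called at noDox alone at chr5:140862801-140865400 (31 reads, 12.2 scaled). It was called at 2d-Dox alone at chr5:140838401-140840000 (30 reads, 9.72 scaled). The listed island at chr5:140760001-140762600 had 8.38 scaled reads.

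With the same limit, H3K9ac had islands at 7d-Dox alone at chr5:140760601-140763600 (54 reads) and chr5:140803601-140806600 (61 reads), and at 2d-Dox and 7d-Dox at chr5:140795401-140798200 (31 and 72 reads). The first 2 had deposited folds of 1.84 and 1.39 over the control, and the third had 7.43 at 2d-Dox and 14.7 at 7d-Dox. The first 2 overlap the H4K16ac islands of 7d-Dox at 140760001 and 140803601, so both marks were called there at that time alone. H3K27ac was called inside the first, at chr5:140761801-140762800, at noDox (33 reads) and not later. The H4K16ac and H3K9ac libraries of 7d-Dox were the largest of their marks, with relative sizes of 7.88 and 4.88, and the part of library size in these calls was not tested.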

How the data were processed

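There were 9 antibody libraries and 1 HRP control library, which enters through its counts in the lists. Per the submitters' processing notes, reads were handled with SICER, deepTools, Picard, cutadapt, FastQC and Bowtie2 2.3.5.1 on hg19. Settings and the treatment of duplicates: not given in the sources used here. Each list was called on 1 library against the HRP control, per the file headers. The deposited antibody and HRP read counts per island are whole numbers without normalisation. In the deposited log2 column the authors give the log2 ratio of both counts less a constant per list, and the deposited score is a multiple of it. The deposited p-value and FDR are the authors' own, per island.

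That constant gave the relative library size by which reads were divided (an HRP count of 0 entered as 0.25). Coordinates are 1-based. Touching islands of a mark's lists were merged. Ratios of 2 counts carry exact Clopper-Pearson intervals at 95%, which cover counting error only. They treat reads as independent molecules, which PCR reads with no molecular identifiers are not, so they may be too narrow. Regions named were drawn from the 5 with most scaled reads per mark, the 3 highest and 3 lowest ratios per time, and those called at 1 or 2 times with at least 50 reads, and other islands and stretches named were chosen after their values were seen. The code was tested on simulated data. Python 3.11.15, numpy 2.4.6, pandas 2.3.3 and scipy 1.17.1 were used. Alternatives changed scaling, FDR, fold, boundary, control subtraction, merging and window placement. The locus, lists and tests were chosen with earlier results of these data known. 1 island on another chromosome was left out.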

Additional observations from a re-analysis of the deposited data

How the results depend on the processing

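Of 81 alternative values of the log2 ratio over the locus, 42 kept their sign and stayed within counting error of the reported value, 28 kept their sign and moved further, and 11 changed sign. Ratios below are over noDox unless said. Handling of the locus end moved H3K9ac and H3K27ac, and the bases kept moved some of these ratios further. With reads divided at the boundaries, H3K9ac was -0.089 (2d-Dox) and -0.00077 (7d-Dox) and H3K27ac -0.19 and 0.19, while over gamma the 7d-Dox values were 0.019 and 0.12. With all islands of touching regions (chosen after seeing the data), H3K9ac was -0.085 and -0.060 and H3K27ac -0.18 and 0.080, with 0.026 over gamma at 7d-Dox. With islands wholly inside (also chosen after), H3K9ac was -0.13 and -0.0066 (gamma 7d-Dox 0.015), H3K27ac 0.31 and 0.13 (gamma 2d-Dox 0.29), and H4K16ac -0.51 at 2d-Dox. H3K27ac at 7d-Dox over 2d-Dox was then -0.18, and -0.30 over gamma. Over bases called in all 3 lists, H3K9ac was 0.055 and -0.21, H3K27ac 0.059 and 0.64, and H4K16ac -0.35 and -0.63, with 7d-Dox over 2d-Dox at -0.27, 0.58 and -0.29. The gamma values that changed sign there were 0.059 (H3K9ac 2d-Dox), 0.053 and 0.63 (H3K27ac), and -0.29 (H4K16ac 7d-Dox over 2d-Dox).

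Scaling by the median of shared regions gave -0.29 (H3K9ac 2d-Dox), -0.44 and -0.11 (H3K27ac), -0.54 (H4K16ac 7d-Dox) and 0.33 (H4K16ac 7d-Dox over 2d-Dox), and H3K9ac at 7d-Dox over 2d-Dox, 0.054 with whole islands, became -0.028. Scaling by reads in islands gave -0.45 (H3K27ac 2d-Dox), -0.62 and 0.16 (the same pair of H4K16ac contrasts), and 2 H4K16ac regions past 2-fold at 7d-Dox in place of 0. That H4K16ac pair was -0.55 and 0.19 after subtracting HRP reads, where H3K27ac at 7d-Dox was -0.16. The pair was -0.30 and 0.42 at an FDR of at most 0.001, and -0.55 and 0.19 at a fold of at least 2, where 29.6 kb stayed called in H4K16ac at 7d-Dox. Joining gaps of 1000 bases left 0 H3K27ac regions past 2-fold at 7d-Dox. For settings other than the locus end and the bases kept, the cause was not tested. No paired analysis was possible because each mark and time has 1 library. Depth limits regions under 50 reads.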
